A study of Mus musculus with 44 samples.

Results

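The interval from 72 h to 96 h of a B-cell differentiation course was examined in 6 of the 44 libraries of the series, taken by the time on their labels: 3 libraries at 72 h and 3 at 96 h, numbered as replicates 1 to 3. All 6 came from FL iLS cells, which are blood progenitors grown from the fetal liver of C57BL/6J mice and held in an immature state by Id3-ERT2, a fusion of the inhibitor Id3 to a receptor domain that works only with the drug 4-hydroxytamoxifen (4-OHT). Before the course the cells were kept on TSt-4 stromal feeder cells with 4-OHT at 40 nM, IL-7 at 20 ng/mL, and SCF and Flt-3L at 10 ng/mL. The course began when 4-OHT was left out and IL-7 lowered to 5 ng/mL, on the same feeder. The 2 groups therefore share the cells, the fusion, the feeder and the medium, and differ in 24 h of further culture. The labels do not say that the replicates were separate cultures, so the p-values below cover the spread between libraries, and no library of cells kept in 4-OHT for the same time was analysed here. Each value is an FPKM, a fragment count scaled to transcript length and to the library's mapped fragments.

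Id proteins bind E proteins such as the product of Tcf3 and keep them off their DNA sites, the E-boxes. When Id3 is withdrawn, E proteins are free to act with Foxo1 and to raise Ebf1, and Ebf1 and Pax5 then set up the B-cell programme. That programme includes the surrogate light chains of the pre-B receptor (Igll1, Vpreb1), its signalling chains (Cd79a, Cd79b) and the recombinase that cuts the immunoglobulin genes (Rag1, Rag2). IL-7 drives survival and division of these early cells.

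The relative depth of the 6 libraries, inferred from the smallest values, lay between 0.920 and 1.21 times that of 72 h replicate 1, and 12154 to 12316 genes reached 1 FPKM. The share of small RNA genes ran from 12.3% in 96 h replicate 1 to 20.4% in 72 h replicate 1. The libraries also differed in how much RNA of stromal type they held, and the labels name no step that took the feeder out. Over 28 fixed stromal genes, which mark fibroblast-like cells, the FPKM of the 72 h libraries added up to 5565, 7793 and 9949, and those of the 96 h libraries to 3067, 3345 and 6271. Over 18 genes of blood cells in general, Ptprc and Coro1a among them, the 72 h libraries added up to 1545, 1172 and 958.2, and the 96 h libraries to 2027, 1910 and 1312. At each time replicate 3 was the library with the most stromal and the least blood-cell signal, and the groups overlapped in both sums. Within each replicate number the stromal sum was lower and the blood-cell sum higher at 96 h, in 3 of 3 pairs. On the log2 scale the stromal sum differed by -0.92 and the blood-cell sum by 0.52, each with p = 0.2 in an exact two-sided permutation test, whose smallest possible p is 0.1 with 3 libraries a side. In such bulk samples fewer cells of a type and less RNA per cell cannot be told apart. Changes of the lists and of most main genes are therefore also given on a second scale, in which each library was divided by the geometric mean of the blood-cell genes. On that scale the median change over all genes tested was -0.42, against 0 on the deposited scale. The part that the difference in cell content plays in single genes was not tested.

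**Figure D1:**
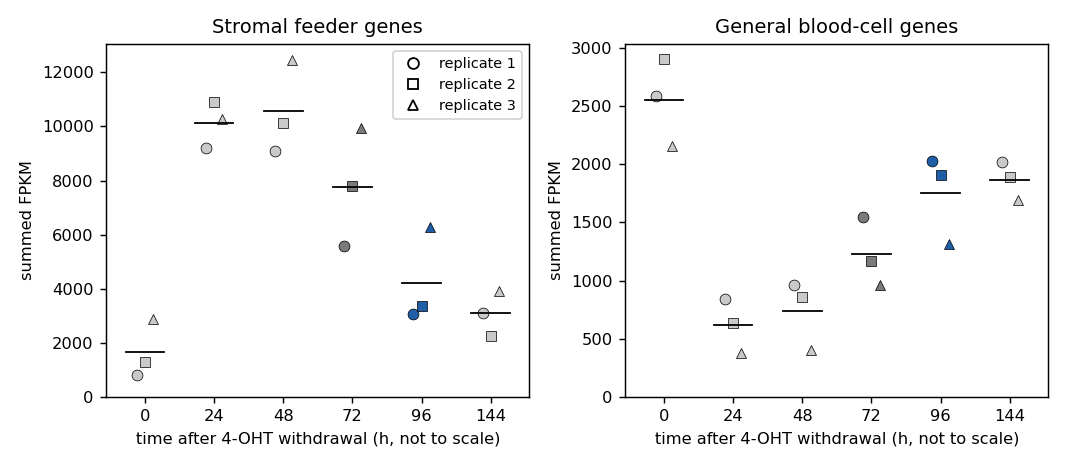
Summed FPKM of the stromal feeder genes (left) and of the general blood-cell genes (right) in each library at 0, 24, 48, 72, 96 and 144 h. Circles, squares and triangles are replicates 1, 2 and 3, lines are means, and the 72 h and 96 h libraries are dark grey and blue; replicate 3 at 96 h, at 6271, lies above replicate 1 at 72 h, at 5565, in the stromal sum.

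Few single genes passed the test over this day in the main fit, which had no block for the replicate number. In the fit with limma on log2(FPKM + 1), with a Benjamini-Hochberg adjusted p under 0.05, 22 of 13907 genes tested were called (0.158%), of which 9 were higher (0.0647%) and 13 lower (0.0935%) at 96 h. At an unadjusted p under 0.05 there were 2235. With 0.158% of all genes called, most short lists would hold no call, so a list without calls is not read as a result about its members. After median-ratio scaling of the libraries the split was 8 higher and 7 lower. Among the called genes that rose was Pou2af1, which has a defined role in B cells. The calls rested on few libraries: the same fit called 597 genes without 72 h replicate 1, 738 without 96 h replicate 3 and 0 without 72 h replicate 3, with 1092 at an unadjusted p under 0.05 in the last case. It called 7 without 72 h replicate 2, 6 without 96 h replicate 1 and 3 without 96 h replicate 2. All 22 genes kept their direction in these fits. The number of calls also depended on the block. With runs of consecutive library codes as a block, 837 genes were called in 42 libraries, 13 stromal and 9 interferon genes among them. With the replicate number as a block, 0 were called in the 6 libraries and 20 in 12. Calls given below are those of the fit without a block.

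Pou2af1, which encodes the B-cell coactivator of octamer-binding factors (OBF-1), stood at 1.33, 7.49 and 3.96 FPKM at 72 h and at 15.4, 26.1 and 18.1 FPKM at 96 h. The 72 h libraries spread over a wide range, all below the 96 h libraries. Pou2af1 rose by 2.15 ± 0.45 (SE) on the log2 scale (limma adjusted p = 0.036), the largest change in the 15 B-lineage transcription factors tested. The difference was 1.60 scaled to the blood-cell genes (adjusted p = 0.093). The call was lost without 72 h replicate 3 and without 96 h replicate 1 or 2.

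**Figure D2:**
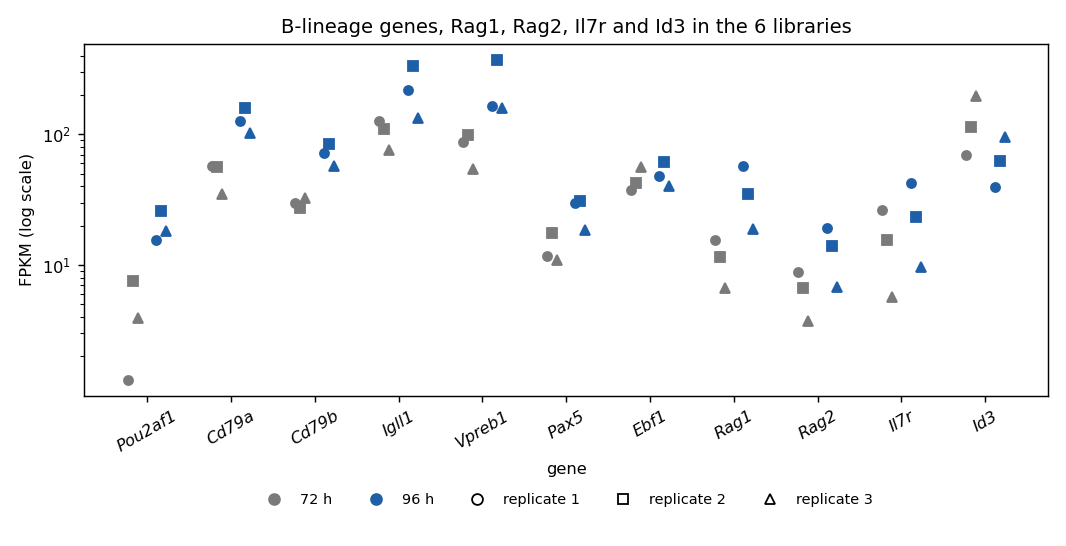
FPKM (log axis) of 11 genes in the 3 libraries at 72 h (grey) and the 3 at 96 h (blue), with circles, squares and triangles for replicates 1, 2 and 3. The 96 h libraries of Pou2af1, Cd79a, Cd79b, Igll1, Vpreb1, Pax5 and Rag1 lie above their 72 h libraries, and those of Ebf1, Rag2, Il7r and Id3 overlap.

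The promoters of 4 genes of this programme are shown because E proteins act through E-boxes and these genes stood higher in every 96 h library than in any 72 h library. They are RefSeq windows on GRCm38.p6, from 250 bases before to 50 after the start of the gene, 5′ to 3′ on the gene's strand. Capitals mark matches, on either strand, to the first kind of E-box, spelled CAGCTG, to a further kind of E-box, spelled CAGGTG, which reads as CACCTG on the opposite strand, to the EBF-type string, spelled TCCCNNGGG, and to the FOXO-type string, spelled GTAAACA.
Pou2af1, chr9:51213440-51213739, plus strand: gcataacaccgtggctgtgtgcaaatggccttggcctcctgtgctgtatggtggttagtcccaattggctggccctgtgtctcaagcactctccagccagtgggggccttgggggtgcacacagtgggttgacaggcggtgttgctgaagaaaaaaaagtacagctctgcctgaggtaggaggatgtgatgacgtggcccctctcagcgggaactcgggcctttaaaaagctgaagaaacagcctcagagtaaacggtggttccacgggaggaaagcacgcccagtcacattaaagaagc
Cd79a, chr7:24897247-24897546, plus strand: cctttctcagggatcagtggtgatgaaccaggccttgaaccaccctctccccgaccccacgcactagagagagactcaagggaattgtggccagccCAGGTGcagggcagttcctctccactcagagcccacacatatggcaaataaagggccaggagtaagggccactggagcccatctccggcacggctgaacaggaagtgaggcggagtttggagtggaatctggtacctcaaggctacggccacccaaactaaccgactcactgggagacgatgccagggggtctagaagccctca
Igll1, chr16:16863936-16864235, minus strand: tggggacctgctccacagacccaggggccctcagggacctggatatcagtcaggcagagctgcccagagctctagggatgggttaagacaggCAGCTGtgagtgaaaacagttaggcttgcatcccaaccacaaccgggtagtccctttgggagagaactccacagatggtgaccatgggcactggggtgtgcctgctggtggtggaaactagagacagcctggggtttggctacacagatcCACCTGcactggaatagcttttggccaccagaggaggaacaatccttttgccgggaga
Rag1, chr2:101649483-101649782, minus strand: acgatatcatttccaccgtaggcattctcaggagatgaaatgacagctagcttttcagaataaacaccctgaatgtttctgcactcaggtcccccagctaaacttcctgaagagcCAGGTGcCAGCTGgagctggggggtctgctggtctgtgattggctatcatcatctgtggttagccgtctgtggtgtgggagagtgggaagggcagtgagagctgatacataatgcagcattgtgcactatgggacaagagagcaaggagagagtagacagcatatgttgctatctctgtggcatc
Igll1 holds CAGCTG at 158 bases before the start and the reverse of the further kind at 8 bases before it. Rag1 holds CAGGTG at 135 bases and CAGCTG at 128 bases before the start, with no overlap between them. Cd79a holds a CAGGTG at 154 bases, and the Pou2af1 window holds none of these letter strings. Of all 32851 windows in the RefSeq table, 16.3% held CAGCTG, 20.2% held CAGGTG, 6.56% the EBF-type and 3.65% the FOXO-type string. Only 29 of the 40 genes named by the fixed rule had a window (72.5%), so no share over those genes is given; the window of Cd79b was among those without an entry. Among other named genes higher at 96 h without overlap, Vpreb1, Ucp2 and Gm5741 held 1 or both E-box strings, and Pax5, Foxo1, Dntt, Atp1b1 and Tceanc held neither. Sardh, which fell, held CAGCTG at 131 and at 122 bases before the start, so the strings were not confined to genes that stood higher. The EBF-type string was held by Gm5741 and Foxo1, which stood higher, by Tpm1, which fell, and by Kit, which overlapped. Id2, which also overlapped, held CAGCTG. A match describes the letters and was not tested as a binding site.

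Of the 20 tested pre-B receptor and B-cell surface genes, 1 was called higher and none lower, against 0.0647% of all genes called higher. The median change of the list was 0.92 on the log2 scale, with 19 of 20 changes above 0, against a median of 0 over all genes; scaled to the blood-cell genes it was 0.45, with 14 above 0. In 8 of the 20 all 96 h libraries lay above all 72 h libraries, which 895 of all genes tested did (6.44%), and in none did they lie below, which 1067 did (7.67%). These groups without overlap are a count of 3 against 3 libraries and not a call.

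The surrogate light chain gene Igll1 stood at 125.7, 109.5 and 75.3 FPKM at 72 h and at 219, 333 and 134 FPKM at 96 h (log2 difference 1.07 ± 0.59 SE, limma adjusted p = 0.38; 0.55 on the blood-cell scale). Its partner Vpreb1 stood at 87.4, 98.5 and 54.2 FPKM and then at 164, 370.1 and 159 FPKM (1.45 ± 0.53, adjusted p = 0.17; 0.93 on the blood-cell scale). Vpreb2, a near-identical copy of Vpreb1 whose reads may be shared with it, gave 1.35 ± 0.60 (adjusted p = 0.26). For all 3 genes replicate 2 was the highest 96 h library, and the groups did not overlap.

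Cd79a, the Ig-alpha signalling chain, stood at 57.1, 56.1 and 34.8 FPKM at 72 h and at 125.4, 158.7 and 102.7 FPKM at 96 h, a mean 2.61 times as high (log2 difference 1.38 ± 0.45 SE, adjusted p = 0.13; 0.86 on the blood-cell scale). Cd79b, the Ig-beta chain, stood at 29.9, 27.1 and 32.5 FPKM and then at 71.7, 83.9 and 56.8 FPKM (1.21 ± 0.45, adjusted p = 0.18; 0.69 on the blood-cell scale). Both sets of libraries were apart, though neither gene passed the test in limma. Blnk, the adaptor below the pre-B receptor, stood at 10.7, 8.23 and 9.43 FPKM and then at 28.7, 23.4 and 13.2 FPKM (1.06 ± 0.41, adjusted p = 0.19). Cd24a, already above 150 FPKM at 72 h, showed 156.8, 179 and 150.2 FPKM and then 157.8, 195.7 and 194.5 FPKM, with overlap. The only member with a negative change was Cd38 (-0.26 ± 0.31). Ms4a1 and Cr2, genes of mature B cells, were listed at 0 in all 6 libraries and were not tested.

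Added over the pre-B and surface list, the 72 h libraries held 808, 776.5 and 552 FPKM, and the 96 h libraries 1314, 1874 and 997.5 FPKM. Added over the B-lineage transcription factors, they held 404, 370.2 and 359.5 FPKM and then 564, 601.9 and 442.7 FPKM. Neither sum overlapped between the times (each p = 0.1, exact two-sided permutation test, the smallest possible). Such separation was not confined to these lists. The summed FPKM of the V(D)J recombination, DNA replication, mitosis and ribosome biogenesis genes were also higher at 96 h without overlap. Those of the amino acid and unfolded protein response, immediate-early and antigen presentation genes were lower without overlap. All these sums are on the deposited scale, on which the blood-cell sum was also higher at 96 h within each replicate number. In the pre-B and surface list and the transcription factor list, 96 h replicate 3 was the lowest of its group. It was the 96 h library with the most stromal RNA.

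Of the 15 B-lineage transcription factors tested, 1 was called higher (Pou2af1) and none lower, and all 15 changes were above 0, with a median of 0.59. Scaled to the blood-cell genes the median was 0.09, with 9 of 15 above 0. In 7 of them the groups did not overlap, always with 96 h higher, against 6.44% of all genes tested. Tcf3 and Ebf1, which act at the top of the B-cell hierarchy, had the smallest changes of the list. Ebf1, the factor that opens the B lineage, stood at 37.2, 42.3 and 55.8 FPKM at 72 h and at 48.2, 61.3 and 39.9 FPKM at 96 h (0.14 ± 0.33 SE, adjusted p = 0.87 in limma); the difference was -0.37 on the blood-cell scale. Tcf3, which encodes the E2A proteins, stood at 71.3, 69.3 and 93.8 FPKM and then at 67.7, 88.5 and 81.5 FPKM (0.03 ± 0.13; -0.49 on the blood-cell scale). Both sets of libraries overlapped.

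Pax5, which fixes commitment to the B lineage, stood at 11.7, 17.6 and 11.003 FPKM at 72 h and at 29.6, 30.7 and 18.5 FPKM at 96 h (0.91 ± 0.44 SE, adjusted p = 0.30; 0.41 on the blood-cell scale). Foxo1, a forkhead factor needed for Rag expression, stood at 6.29, 9.66 and 7.79 FPKM and then at 9.99, 11.5 and 10.9 FPKM (0.42 ± 0.23; -0.05 on the blood-cell scale). Irf4, which acts downstream of pre-B receptor signals, stood at 1.57, 2.21 and 2.09 FPKM and then at 5.68, 5.73 and 5.40 FPKM (1.16 ± 0.29, adjusted p = 0.070). For these 3 genes each 96 h library was above each 72 h library. Irf8 (0.91 ± 0.33), Bcl11a (0.92 ± 0.28) and Bach2 (0.66 ± 0.22) were likewise apart, with limma adjusted p of 0.16, 0.10 and 0.14. Ikzf3 stayed at or under 1.15 FPKM and was not tested.

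Of the 13 genes of V(D)J recombination none was called; 5 were higher and 1 lower without overlap, against 6.44% and 7.67% of all genes, and the median change was 0.26 (0.01 on the blood-cell scale). That median was 0.024 without 72 h replicate 3 and 0.49 without 72 h replicate 1. Rag1, which with Rag2 makes the first cut of the reaction, had the largest change of the list. Rag1 stood at 15.6, 11.6 and 6.71 FPKM at 72 h and at 56.9, 35.2 and 19.0 FPKM at 96 h, a mean 3.27 times as high (log2 difference 1.57 ± 0.41 SE, adjusted p = 0.078; 1.06 on the blood-cell scale). Its partner Rag2 stood at 8.83, 6.66 and 3.73 FPKM and then at 19.1, 14.1 and 6.82 FPKM, so 96 h replicate 3 fell within the 72 h range (0.91 ± 0.40, adjusted p = 0.25; 0.44 on the blood-cell scale). Dntt, the polymerase that adds untemplated bases, stood at 0.839, 0 and 0 FPKM and then at 1.36, 1.03 and 0.864 FPKM (0.76 ± 0.22, adjusted p = 0.094). In each of these genes replicate 1 was the highest library at its time.

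Among the end-joining genes, which repair the cut ends, Xrcc6 (Ku70) stood at 38.5, 30.8 and 27.6 FPKM at 72 h and at 70.2, 61.5 and 39.3 FPKM at 96 h (0.77 ± 0.17 SE, adjusted p = 0.053). Polm, a gap-filling polymerase, was the member below 0 without overlap, at 11.2, 10.7 and 16.2 FPKM and then 4.67, 4.48 and 10.7 FPKM (-0.92 ± 0.25, adjusted p = 0.084). Prkdc, Lig4, Dclre1c and Poll overlapped, with log2 differences of 0.19, 0.26, 0.13 and 0.06.

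Of the 16 genes of the IL-7 receptor, STAT5 and their feedback none was called and none was free of overlap. Of all genes tested 0.158% were called, and 6.44% were higher and 7.67% lower without overlap. The median change of the 16 genes was 0.30, and -0.22 on the blood-cell scale. It was 0.10 without 72 h replicate 3, 0.14 without 96 h replicate 1 and 0.52 without 72 h replicate 1. Il7r, the receptor chain specific to IL-7, stood at 26.6, 15.5 and 5.65 FPKM at 72 h and at 42.6, 23.4 and 9.65 FPKM at 96 h (0.63 ± 0.48 SE, adjusted p = 0.53; 0.15 on the blood-cell scale). The replicates were in the same order at both times, replicate 1 highest and replicate 3 lowest. The STAT5 targets Cish, Pim1 and Socs2 gave 0.50 ± 0.37, 0.51 ± 0.35 and 0.28 ± 0.29, and each was at or below 0 on the blood-cell scale. Il2ra stood at 20.9, 16.7 and 10.1 FPKM and then at 43.4, 33.4 and 20.5 FPKM (0.98 ± 0.35, adjusted p = 0.16).

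None of the 6 further E and Id protein genes was called, and their median change was -0.16 (-0.66 on the blood-cell scale). Without 72 h replicate 1 or 3 it was -0.29 or -0.095, without 96 h replicate 1 or 3 it was -0.28 or -0.083, and with the stromal mean as a covariate it was 0.012. Id3 stood at 70.0, 113 and 195 FPKM at 72 h and at 39.6, 62.5 and 95.8 FPKM at 96 h, with overlap (-0.89 ± 0.38 SE, limma adjusted p = 0.23). Its values cannot separate the cells' own transcript from that of the Id3-ERT2 fusion or of feeder cells. Id1 stood at 47.6, 49.1 and 120.2 FPKM and then at 28.8, 35.4 and 75.3 FPKM (-0.61 ± 0.34). Both followed the order of the stromal sum, with replicate 3 highest at each time, and the part of feeder RNA in them was not tested. Id2 stood at 37.4, 25.8 and 34.2 FPKM and then at 42.1, 28.8 and 24.2 FPKM. Tcf12, another E protein gene, was the one member without overlap, at 35.7, 35.1 and 34.9 FPKM and then 29.9, 27.8 and 29.8 FPKM (-0.27 ± 0.12, adjusted p = 0.26). Over all genes tested 7.67% were lower and 6.44% higher without overlap, and 0.158% were called.

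Of the 19 stem and multipotent progenitor genes tested none was called, and the median change was 0.34 on the deposited scale and -0.17 on the blood-cell scale. It was 0.068 without 96 h replicate 1, 0.15 without 72 h replicate 3 and 0.54 without 72 h replicate 1. Flt3, a receptor of early progenitors, stood at 50.3, 32.6 and 25.8 FPKM at 72 h and at 52.6, 44.2 and 37.6 FPKM at 96 h. Kit, the SCF receptor, stood at 19.6, 10.4 and 6.51 FPKM and then at 29.7, 12.8 and 10.6 FPKM. Cd34 stood at 183.6, 82.1 and 85.5 FPKM and then at 196, 73.5 and 84.0 FPKM, the same order of replicates with near-equal means. Flt3, Kit and Cd34 overlapped between the times. Over the 19 tested members 11 changes were above 0 and 8 below, from -0.87 to 1.35. Of these members 2 were higher and 1 lower without overlap, against 6.44% and 7.67% of all genes. Myc, which sets growth and ribosome synthesis, stood at 61.7, 88.7 and 92.9 FPKM and then at 63.4, 161 and 104 FPKM (0.35 ± 0.27; -0.17 on the blood-cell scale).

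Other blood lineages were represented unevenly. None was called among the 13 T-lineage, 17 myeloid, 10 NK and innate lymphoid, 7 erythroid and megakaryocyte, and 4 mast cell and basophil genes tested, whose medians were 0.10, 0.05, 0.09, 0.47 and -0.32 (-0.40, -0.25, -0.14, 0.24 and -0.34 on the blood-cell scale). These medians rested on single libraries. Without 96 h replicate 1 the T-lineage, myeloid and NK medians were -0.39, -0.13 and -0.15, and without 72 h replicate 3 the myeloid, NK, erythroid and mast cell medians were -0.16, -0.090, 0.028 and -0.16. Without 72 h replicate 1 the NK median was 0.51, without 72 h replicate 2 the T-lineage and myeloid medians were -0.098 and 0.34, and without 96 h replicate 3 the T-lineage and NK medians were 0.25 and 0.42. The NK median was also 0.16 without 96 h replicate 2 and 0.038 without 72 h replicate 2, the myeloid median 0.097 without 96 h replicate 2 and -0.014 without 72 h replicate 1, and the T-lineage median -0.00073 without 72 h replicate 3. Cd3e and Themis (T cells), S100a9, Ngp and C1qa (myeloid cells), Gata1 and Car1 (red cells) and Fcer1a and Prss34 (mast cells and basophils) were listed at 0 in all 6 libraries. Other markers were well above 0: Tcf7, a T-cell and progenitor factor, stood at 82.5, 18.6 and 16.0 FPKM at 72 h and at 110, 22.9 and 12.0 FPKM at 96 h. The lysozyme gene Lyz2, a myeloid marker, stood at 69.3, 55.2 and 92.2 FPKM and then at 75.6, 34.6 and 45.4 FPKM. Both overlapped between the times. Cebpa, a factor of myeloid commitment, stood at 15.4, 21.2 and 41.9 FPKM at 72 h and at 7.66, 14.2 and 12.9 FPKM at 96 h, without overlap (-1.03 ± 0.35 SE, limma adjusted p = 0.14).

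**Figure D3:**
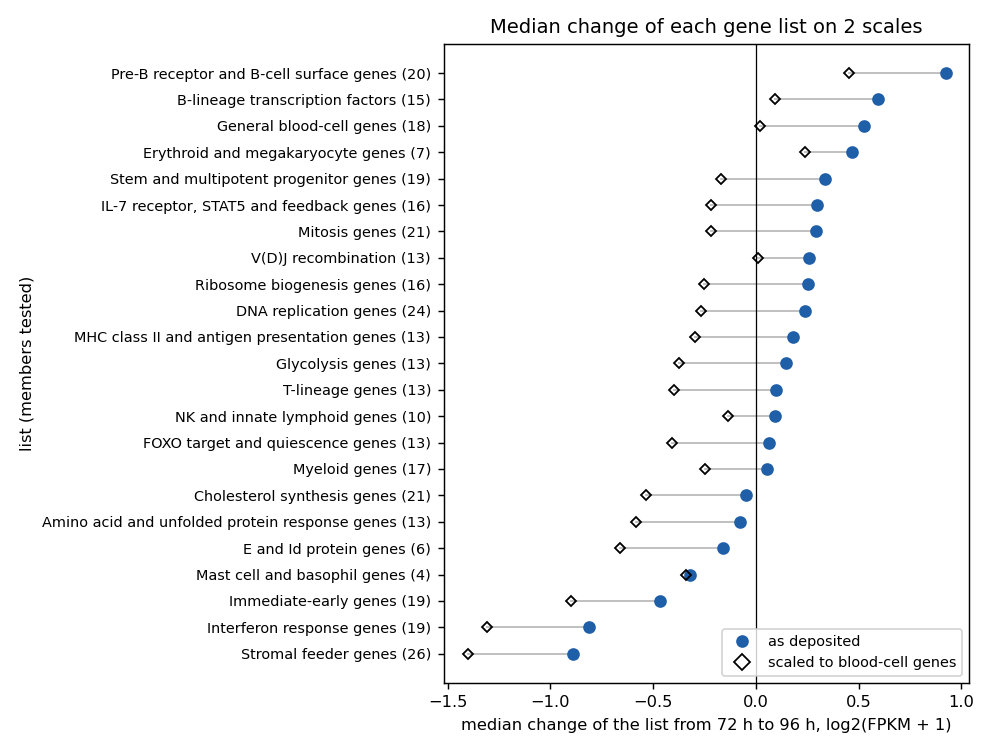
Median log2(FPKM + 1) change from 72 h to 96 h of each fixed list, with the number of members tested, on the deposited scale (filled) and scaled to the blood-cell genes (open). The pre-B and surface list has the highest median on both scales (0.92 and 0.45), and the stromal list the lowest (-0.89 and -1.40).

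Genes of cell division stood slightly higher at 96 h on the deposited scale, and none was called. All 21 mitosis genes had a change above 0 (median 0.29), and 6 were free of overlap, against 6.44% of all genes; scaled to the blood-cell genes the median was -0.22 and 5 were above 0. Mki67, a marker of cycling cells, stood at 58.0, 45.5 and 41.1 FPKM at 72 h and at 92.0, 73.7 and 67.3 FPKM at 96 h (0.68 ± 0.17 SE, limma adjusted p = 0.075; 0.17 on the blood-cell scale). Of 24 DNA replication genes 19 had a change above 0 (median 0.24, and -0.27 on the blood-cell scale), 7 of them without overlap, such as Mcm3 at 91.9, 80.5 and 70.0 FPKM and then 99.3, 123 and 119.9 FPKM. The 16 ribosome biogenesis genes and the 13 glycolysis genes had medians of 0.25 and 0.15 (-0.25 and -0.37 on the blood-cell scale). The ribosome median was 0.12 without 96 h replicate 2 and 0.16 without 72 h replicate 3, and the glycolysis median was 0.23 without 72 h replicate 2 and 0.25 without 96 h replicate 3. The sign of these 4 medians thus depended on the scale. The median over all genes tested was 0 on the deposited scale and -0.42 on the blood-cell scale, and the 4 medians lay above it on both.

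Interferon response genes had lower values at 96 h on the log2 scale, with none called. Their summed FPKM were 2693, 3591 and 4581 at 72 h and 1577, 2048 and 2753 at 96 h, with overlap (p = 0.2, exact two-sided permutation test). All 19 had a change below 0 (median -0.81, and -1.31 on the blood-cell scale), and 9 were free of overlap, against 7.67% of all genes lower without overlap. Mx2, an antiviral GTPase, stood at 47.8, 68.9 and 73.6 FPKM at 72 h and at 19.3, 22.1 and 32.7 FPKM at 96 h (-1.34 ± 0.58 SE, limma adjusted p = 0.25). The chemokine gene Cxcl10 stood at 70.8, 153 and 175 FPKM and then at 22.7, 32.2 and 72.0 FPKM, a bare overlap (-1.70 ± 0.63, adjusted p = 0.17). Isg15, a ubiquitin-like modifier, stood at 435, 571 and 801 FPKM and then at 209, 323 and 393 FPKM (-0.97 ± 0.56). Replicate 3 was the highest library at both times in these genes, as in the stromal sum. With the stromal mean as a covariate the median of the list was -0.29, and that of the pre-B and surface list was 0.60.

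The stromal feeder genes had 26 of 26 tested members below 0, none called and 22 with an unadjusted p under 0.05. Their median was -0.89, and 5 were free of overlap, against 7.67% of all genes. Col1a1, a fibrillar collagen gene, stood at 413, 724 and 1214 FPKM at 72 h and at 219, 264 and 636 FPKM at 96 h (-1.10 ± 0.37 SE, limma adjusted p = 0.14). Cxcl12, the stromal chemokine that holds early B cells, stood at 1128, 1336 and 1565 FPKM and then at 530, 605 and 876 FPKM, without overlap (-1.02 ± 0.49). Dcn and Lum, collagen-binding genes of many fibroblasts, were listed at 0 in all 6 libraries. Of 19 immediate-early genes, which respond to stimulation within minutes, 17 had a change below 0 (median -0.47, and -0.28 without 72 h replicate 1) and none was called. Atf3 stood at 5.74, 6.79 and 5.75 FPKM and then at 1.91, 1.81 and 1.36 FPKM (-1.40 ± 0.40, adjusted p = 0.094).

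Outside the lists, 7 further genes rose. Atp1b1, the beta subunit of the sodium pump, stood at 7.41, 11.5 and 8.43 FPKM at 72 h and at 27.1, 37.3 and 26.5 FPKM at 96 h, a mean 3.33 times as high. It rose by 1.64 ± 0.28 (SE; limma adjusted p = 0.0063; 1.12 on the blood-cell scale with an adjusted p of 0.082), and its call was lost without 72 h replicate 3 or 96 h replicate 2. Ucp2, a carrier of the inner mitochondrial membrane, stood at 136.6, 127 and 113 FPKM and then at 219.9, 320.3 and 180.5 FPKM (0.89 ± 0.19, adjusted p = 0.039). On the blood-cell scale its difference was 0.37 (adjusted p = 0.33), and its call held in 5 of 22 alternatives, fewer than for any other called gene. The others were low: Clgn, a chaperone of the endoplasmic reticulum, reached 4.34 ± 0.40 FPKM (SD, n = 3), Tceanc 2.81 ± 0.68, Slc5a9, a sugar transporter gene, 1.49 ± 0.49, and Clec4a4, a lectin receptor gene listed at 0 at 72 h, 1.06 ± 0.68. Gm5741 was listed at 0 at 72 h and stood at 6.75, 5.11 and 6.42 FPKM at 96 h. Gm5506, with a difference of 4.22 ± 1.52 and an adjusted p of 0.16, stood near 0 at 72 h and at 88.9, 3.66 and 17.2 FPKM at 96 h. RefSeq names it Eno1b, and its reads may be shared with Eno1.

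None of the 13 genes that fell was in a fixed list. Nptxr, a neuronal pentraxin receptor gene, stood at 5.02, 6.33 and 12.8 FPKM at 72 h and at 0.0001, 0.934 and 0 FPKM at 96 h. It fell by 2.77 on the log2 scale (SE 0.41, limma adjusted p = 0.0017). Tpm1, a tropomyosin of the actin cytoskeleton, was the most abundant, at 259, 304 and 377 FPKM and then 131, 116 and 211 FPKM (-1.06 ± 0.22, adjusted p = 0.036). Sqrdl, a mitochondrial sulfide oxidase gene, stood at 34.9, 40.2 and 50.6 FPKM and then at 15.7, 14.1 and 23.7 FPKM (-1.21 ± 0.23, adjusted p = 0.030). Dlg5, a scaffold protein gene, stood at 10.4, 15.8 and 21.98 FPKM and then at 3.36, 4.02 and 10.00 FPKM (-1.40 ± 0.30, adjusted p = 0.039). In 10 of the 13 replicate 3 was the highest library at 72 h, and also in 10 at 96 h, as it was for the stromal sum; among the 9 that rose it was the highest of none.

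Also lower at 96 h by the same test were Kctd15 (-1.60), Cdrt4 (-1.54, listed at 0 at 96 h), Snx7 (-1.50, the only one of the 13 whose libraries overlapped), Adcy8, an adenylyl cyclase gene (-1.41), Sardh, a mitochondrial sarcosine dehydrogenase gene (-1.30), Ccdc109a, the mitochondrial calcium uniporter that RefSeq names Mcu (-1.09), Lrp12 (-0.76) and Hnrpll, a splicing regulator gene (-0.70). Tpm1 had means of 111, 662, 484, 313, 153 and 116 FPKM at 0, 24, 48, 72, 96 and 144 h, and Sqrdl 10.7, 57.3, 73.2, 41.9, 17.8 and 12.4 FPKM. At the same times Lrp12 had means of 8.66, 9.56, 11.1, 11.4, 6.33 and 6.86 FPKM, and Adcy8 0.540, 3.05, 3.18, 4.29, 0.974 and 0.972 FPKM. The mean stromal sums at these times were 1651, 10128, 10554, 7769, 4228 and 3094 FPKM. The part of feeder RNA in the genes that fell was not tested. With the stromal mean as a covariate limma called 0 of 13907 genes, with 600 at an unadjusted p under 0.05. That covariate itself differed between the times, which lowers the power for the step, so these counts do not measure the part of feeder RNA. Scaled to the blood-cell genes it called 3, of which Gm5741 and Nptxr were among the 22.

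**Figure D4:**
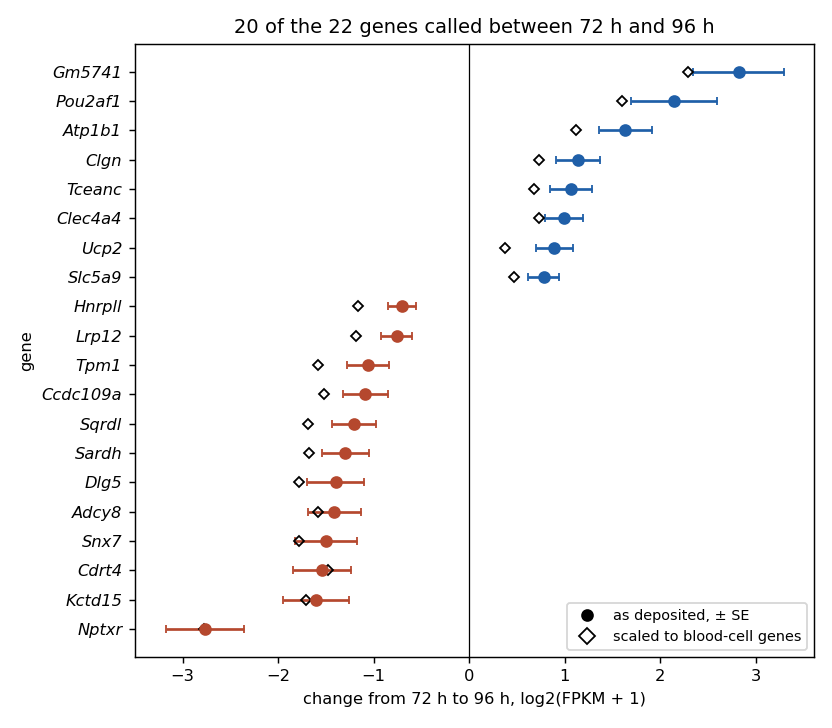
Change from 72 h to 96 h in log2(FPKM + 1) of 20 of the 22 called genes, with SE (filled points), and the same change scaled to the blood-cell genes (open diamonds). The 8 shown that rose lie between 0.78 and 2.82 and the 12 shown that fell between -2.77 and -0.70; all keep their sign on the second scale.

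The neighbouring steps were fitted in the same model and share libraries with this one, the 72 h libraries with the step before and the 96 h libraries with the step after. From 48 h to 72 h, 6 of 13907 genes were called (0.0431%), and from 96 h to 144 h, over 48 h, 2 were called (0.0144%). Atp1b1 was among the first, with a rise of 1.77 ± 0.28 (SE, limma adjusted p = 0.0045), against 1.64 in the step to 96 h. Slc5a9 was among the second, with a rise of 0.87 ± 0.16 (adjusted p = 0.048). Several B-lineage genes had positive changes in all 3 steps. Cd79a gave 1.82, 1.38 and 0.62 over the steps to 72, 96 and 144 h, Vpreb1 1.86, 1.45 and 0.89, Rag1 1.68, 1.57 and 0.49, and Pax5 1.94, 0.91 and 0.30. Over the same steps Ebf1 gave 0.15, 0.14 and 0.31, Foxo1 0.03, 0.42 and 0.41, and Tcf3 0.25, 0.03 and 0.28. None of these genes was called in any of the 3 steps. Pou2af1 had its largest value, 2.15, in the step to 96 h, against 0.84 before and 0.65 after. The medians of the pre-B and surface list were 1.04, 0.92 and 0.42, beside 0.75, 0.52 and 0.078 for the general blood-cell genes (0.34 in place of 0.52 without 72 h replicate 3), and those of the interferon list 0.40, -0.81 and -0.61.

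The difference between steps was tested directly. No gene's step from 72 h to 96 h differed from its step from 48 h to 72 h in limma (0 of 13907, 0%), with 509 at an unadjusted p under 0.05, so Pou2af1 (difference 1.31) was not called. Against the step from 96 h to 144 h, 2 genes differed (0.0144%), Gm5741 and Nptxr. Both stood apart at 96 h from the times on either side, and neither was a member of a fixed list.

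**Figure D5:**
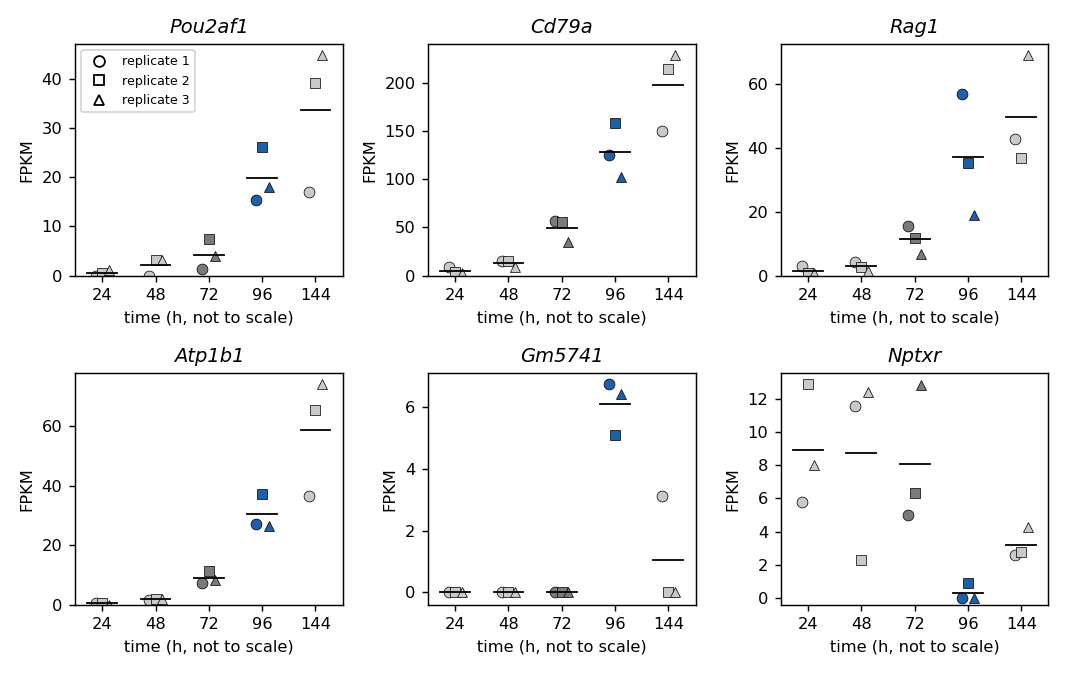
FPKM in each library of Pou2af1, Cd79a, Rag1, Atp1b1, Gm5741 and Nptxr at 24, 48, 72, 96 and 144 h (circles, squares and triangles for replicates 1, 2 and 3, lines for means; 72 h dark grey, 96 h blue). The first 4 genes have their highest mean at 144 h, whereas Gm5741 peaks (6.09) and Nptxr is lowest (0.311) at 96 h.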

How the data were processed

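Poly(A) RNA of the 72 h and 96 h cultures was sequenced, and the authors deposited 1 table of FPKM values for 23234 genes in 44 libraries, named corrected without saying how. TopHat2 2.1.0 and Cufflinks 2.1.1, with mm9 as the build, are given in the submitters' processing notes. Absolute depth is unknown, since FPKM are no counts, and a value of 0 is called listed at 0: 18 genes with a median of at least 20 FPKM were at 0 in some of the 6 libraries. Groups came from the time on the labels. Values were taken as log2(FPKM + 1), which understates changes of low genes. A gene entered the fit where 3 or more of 42 libraries (14 time points with replicates) reached 1 FPKM. The fit used limma 3.58.1 in R 4.3.3 (1 mean per time point, eBayes with a trend, 28 residual degrees of freedom, Benjamini-Hochberg over 13907 genes), and adjusted p under 0.05 made a call. Log2 changes carry an SE and FPKM means an SD. Single sums were compared by exact permutation. The pipeline was tested on simulated data.

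The 23 lists hold 388 genes, all in the table, of which 356 were tested. The lists, the named genes and the comparisons were chosen with earlier results of these data known. The rule for named genes gave the 10 largest rises and 10 largest falls without overlap, filled with uncalled genes where needed, up to 3 called members per list, and 22 fixed genes (small RNA genes left out). Other list members named were chosen after their values were seen. Alternatives changed the block, the libraries fitted, the pseudocount, the filter, the scaling, the covariate and the trend, and left out libraries. Promoters are RefSeq windows matched by symbol or by a unique older symbol. Coordinates belong to GRCm38.p6, not to the build of the FPKM values. Figures were drawn with matplotlib. Single values of 3 genes are not reported here, though the counts and sums include them.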

Additional observations from a re-analysis of the deposited data

Results flagged for a closer look

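Of the genes tested, 2 had a step from 72 h to 96 h that differed from the step from 96 h to 144 h in limma. For Gm5741 the first step minus the second was 4.96 ± 0.82 on the log2 scale (SE, adjusted p = 0.0062). It was listed at 0 in all libraries at 24, 48 and 72 h, stood at 6.75, 5.11 and 6.42 FPKM at 96 h, and at 3.12, 0 and 0 FPKM at 144 h. It was also listed at 0 in the single libraries at 120 h and 168 h. Earlier in the course it stood at 2.32 FPKM in replicate 3 at 0.5 h and at 5.75 FPKM in replicate 2 at 1 h, the second of which lies within the range at 96 h, and it was listed at 0 in the other libraries up to 12 h.

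For Nptxr the same difference was -4.51 ± 0.71 (SE, adjusted p = 0.0052). It stood at 5.02, 6.33 and 12.8 FPKM at 72 h, at 0.0001, 0.934 and 0 FPKM at 96 h and at 2.61, 2.80 and 4.26 FPKM at 144 h. The single library at 120 h, between those times, held 5.27 FPKM. The second step is 48 h long and the first 24 h, and both comparisons use the same 96 h libraries.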

How the results depend on the processing

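The 22 calls (9 higher, 13 lower) became 2 (2 higher, 0 lower) in a fit of the 6 libraries alone and 1 (1, 0) with 12 libraries. They became 1 (0, 1) and 10 (2, 8) with pseudocounts of 0.1 and 0.5, 39 (19, 20) with no filter and 9 (2, 7) with a filter of 5 FPKM. They became 3 (1, 2) scaled to the blood-cell genes, and 0 (0, 0) with the stromal covariate, which left 600 at an unadjusted p under 0.05. Median-ratio scaling gave 15 calls (8 higher, 7 lower), quantile normalization 29 (13, 16), no trend 23 (10, 13) and a 2-fold minimum 16 (6, 10). Leaving out 1 library gave 0 to 738 calls, 0 to 175 higher and 0 to 615 lower. An alternative chosen after seeing the data, without both replicate 3 libraries, gave 24 (4 higher, 20 lower), 11 of them among the 22. Where fits without a library differed, the cause was not tested. The called genes kept their direction in every alternative that gave them a value.

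Same-numbered libraries of the 2 times had deviations correlated at 0.22, -0.03 and 0.20 across genes for replicates 1, 2 and 3. Replicates 1 and 3 matched their own number best. At these times each number is also a run of consecutive library codes. The labels name no shared culture or day, so whether same-numbered libraries are paired is not known. With the replicate number as a block there were 0 calls (0 higher, 0 lower) in 6 libraries (more than 2235 genes were at an unadjusted p under 0.05), 20 (4 higher, 16 lower) in 12, and 837 (218 higher, 619 lower) in 42, there with the run of codes as the block. Among list members that last fit called, with others, 13 stromal and 9 interferon genes lower, 5 mitosis genes higher, 4 each of the pre-B and surface, transcription factor and general blood-cell lists higher, and 4 V(D)J genes higher with 1 lower. The step before differed for 1 gene in place of 0, and the step after for 1 in place of 2, in 12 libraries with and without the replicate block.

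Scaled to the blood-cell genes, 11 of 23 list medians turned, to -0.40 (T-lineage), -0.14 (NK), -0.22 (IL-7 and STAT5), -0.17 (stem), -0.25 (myeloid), -0.27 (replication), -0.22 (mitosis), -0.41 (FOXO), -0.25 (ribosome), -0.37 (glycolysis) and -0.30 (MHC). On that scale the median over all genes tested was itself -0.42. Leaving out 1 library turned the sign of 6 medians, which then spanned -0.39 to 0.25 (T-lineage), -0.16 to 0.34 (myeloid), -0.15 to 0.51 (NK), -0.13 to 0.093 (cholesterol), -0.021 to 0.14 (FOXO) and -0.086 to 0.33 (MHC, lowest without 96 h replicate 2). Without both replicate 3 libraries the cholesterol median was 0.17, the erythroid -0.046 and the myeloid -0.17. With the stromal covariate the T-lineage, myeloid and E and Id medians were -0.38, -0.060 and 0.012. The T-lineage median was -0.056 with a pseudocount of 0.1, and the myeloid -0.014 with a filter of 5 FPKM. No other list median changed sign in these alternatives.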

Other observations

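The 21 cholesterol synthesis genes had a median change of -0.050, and none was called; the median was -0.088, -0.13 and 0.093 without 96 h replicates 1, 2 and 3 in turn, and -0.11 and 0.020 without 72 h replicates 2 and 3. Sqle, squalene epoxidase, stood at 44.0, 46.5 and 63.1 FPKM at 72 h and at 38.3, 38.8 and 40.1 FPKM at 96 h, without overlap (-0.36 ± 0.16 SE, limma adjusted p = 0.25).

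The 13 genes of the amino acid and unfolded protein responses had a median of -0.078 (-0.21 without 96 h replicate 2, and -0.15 and -0.13 without 72 h replicates 1 and 3), and none was called. Ddit3 (CHOP), a stress-induced transcription factor gene, stood at 77.4, 131 and 116 FPKM at 72 h and at 33.1, 54.8 and 81.0 FPKM at 96 h (-0.98 ± 0.34 SE, limma adjusted p = 0.15). Chac1, a glutathione-degrading enzyme gene of the same response, gave -0.99 ± 0.30 (adjusted p = 0.11). The 13 tested genes of antigen presentation had a median of 0.18 (-0.30 on the blood-cell scale), and 1 was higher and 1 lower without overlap. The higher one was Cd74, the invariant chain of MHC class II, at 58.6, 82.1 and 67.0 FPKM and then 104, 150.1 and 88.0 FPKM (0.69 ± 0.38, adjusted p = 0.39). The 13 tested FOXO target and quiescence genes had a median of 0.06 (-0.41 on the blood-cell scale), also with 1 higher and 1 lower without overlap. Here the higher one was Ccnd3, the cyclin of early B cells, at 121, 111 and 107 FPKM and then 196, 197 and 122 FPKM (0.56 ± 0.23, adjusted p = 0.23). Over all genes tested 6.44% were higher and 7.67% lower without overlap.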
